A study of Homo sapiens with 4 samples.

Results

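Keratins are the intermediate filament proteins of epithelial cells. A type I keratin and a type II keratin join as a pair, and the pair in use changes with the kind of epithelium and the layer of the cell. The 5 genes described here encode the basal keratins KRT5, KRT14 and KRT15 and the mucosal keratins KRT13 and KRT4. KRT5 (type II) and KRT14 (type I) are the partners of the basal layer of stratified epithelium. KRT15 is a type I keratin of basal cells that is also known from the hair follicle bulge, and it has no type II partner of its own. KRT4 (type II) and KRT13 (type I) are the partners above the basal layer of wet stratified epithelium such as that of mouth and oesophagus, which does not cornify, and vitamin A signalling is known to favour them over the keratins of cornifying skin.

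The members were the rows of the gene tables with these 5 symbols, 5 of 44591 rows and 5 of the 55 protein-coding keratin genes, and each was found once in all 4 tables. RNA-seq was performed in HaCaT, a keratinocyte line that arose from human skin and divides without limit, grown without treatment in Dulbecco's modified Eagle medium with 12% fetal bovine serum per the labels. There was 1 condition with 4 replicates and no comparison group, so levels, ratios and the spread between replicates are given. The labels do not say whether the replicates were separate cultures, while the study calls them biological repeats, so p-values measure only the spread between these samples, which may be technical. Levels are TPM, that is, the count divided by gene length and scaled to a sum of 1000000 over the protein-coding genes of a library, and a gene with a mean TPM above 1 was called detected.

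Replicate 1 stood apart from the others in depth and makeup. It held 73082279 counts against 17056035, 19745170 and 19083836 in replicates 2 to 4, and protein-coding genes took 76.1% of its counts against 95.3%, 95.7% and 96.4%. Its difference from the other replicates also moved with the GC content of the transcript. The median of the log2 difference of replicate 1 from the averaged other replicates was 0.82 for the genes lowest in GC (bin 1 of 5) and -0.72 for those highest in GC (bin 5), with a Spearman correlation of -0.51 over 11889 genes, given as a description. All 12 keratinocyte markers were detected in HaCaT, KRT5 and KRT14 among them, with a summed level of 11934 to 17546 TPM. The members KRT5 and KRT14 held most of that sum in every replicate. The 7 fibroblast markers summed to 5.20 to 9.70 TPM, the 5 melanocyte markers to 1.36 to 3.73 TPM with TYR at 0 counts in every replicate, and the 3 endothelial markers to 0.859 to 2.36 TPM with PECAM1 at 0 counts. The 4 leukocyte markers summed to 11.3 to 52.0 TPM, nearly all of it CD68 and CD14, while PTPRC had no count in replicates 2 to 4 and 0.0166 TPM in replicate 1. Replicates 2 and 3 also stood apart from replicates 1 and 4 in the interferon-stimulated gene IFI6, at 11.6, 2417, 2442 and 29.2 TPM in replicates 1 to 4. Other genes of that kind were not examined here.

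The 5 genes lie in the keratin clusters of chromosomes 12 and 17, all on the minus strand, at the hg19 positions of the files. KRT13 (Entrez gene 3860) spans bases 39657233 to 39661865 of chromosome 17, KRT15 (3866) spans 39669997 to 39675270, and KRT14 (3861) spans 39738531 to 39743147. Only 8132 bases separate KRT13 from KRT15, and 63261 bases separate KRT15 from KRT14. On chromosome 12, KRT5 (3852) spans 52908359 to 52914243 and KRT4 (3851) spans 53200327 to 53207900, 286084 bases apart. Counts of these genes depend on sequence differences between relatives, so a coding stretch where KRT14 is much like them is shown, bases 352 to 447 of the KRT14 coding sequence, with the best ungapped match of 4 other type I keratins. Letters come from the transcripts of GENCODE release 29 on GRCh38, and each stretch lies within 1 coding exon on the minus strand, KRT14 at chr17:41586388-41586483, KRT16 at chr17:41612236-41612331, KRT17 at chr17:41624156-41624251, KRT15 at chr17:41518411-41518506 and KRT13 at chr17:41505137-41505232. Capitals mark the bases that differ from KRT14.
KRT14: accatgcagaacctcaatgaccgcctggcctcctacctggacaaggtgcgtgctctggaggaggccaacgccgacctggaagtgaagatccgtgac
KRT16: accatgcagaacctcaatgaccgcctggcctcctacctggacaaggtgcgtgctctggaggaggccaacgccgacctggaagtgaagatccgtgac
KRT17: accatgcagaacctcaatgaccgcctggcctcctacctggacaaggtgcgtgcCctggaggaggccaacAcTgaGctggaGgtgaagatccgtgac
KRT15: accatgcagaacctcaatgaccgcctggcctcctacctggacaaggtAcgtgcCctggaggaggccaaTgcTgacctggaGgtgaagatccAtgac
KRT13: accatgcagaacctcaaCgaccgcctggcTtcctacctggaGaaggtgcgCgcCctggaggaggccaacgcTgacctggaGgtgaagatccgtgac

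KRT16, a keratin of wounded and stressed skin, had 0 differing bases from KRT14 over these 96 bases. KRT17 had 5 differing bases, KRT15 had 6 and KRT13 had 7, so KRT13 was still 92.7% identical to KRT14 in this stretch. For the type II genes a different stretch is shown, the start of the longest run that KRT5 shares with KRT6A, bases 595 to 690 of the KRT5 coding sequence, at chr12:52519026-52519121, with KRT6A at chr12:52491602-52491697 and KRT4 at chr12:52811843-52811938 on the same build and strand. Capitals mark the bases that differ from KRT5.
KRT5: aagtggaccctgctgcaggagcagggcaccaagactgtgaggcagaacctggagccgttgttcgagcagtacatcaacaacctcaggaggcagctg
KRT6A: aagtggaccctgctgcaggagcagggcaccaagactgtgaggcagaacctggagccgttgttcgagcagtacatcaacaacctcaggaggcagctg
KRT4: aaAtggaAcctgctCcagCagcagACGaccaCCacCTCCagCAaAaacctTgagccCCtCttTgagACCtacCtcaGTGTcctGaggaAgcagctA

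KRT6A, another stress keratin, had 0 differing bases from KRT5 and KRT4 had 32 of 96. Over the whole coding sequence, the aligned bases of KRT14 were 87.4% identical to KRT16 and 85.2% to KRT17, those of KRT15 and KRT13 were 78.3% identical to each other, and those of KRT5 and KRT4 were 73.8% identical. Windows of 50 coding bases that occur exactly in a transcript of another gene made up 24.6% of KRT14 (336 of 1367, in 12 genes), 5.75% of KRT5 (99 of 1721, in KRT6A, KRT6B and KRT6C), 1.29% of KRT15 and 1.28% of KRT13 (17 windows each, shared between these 2 genes) and 0% of KRT4 (0 of 1511). How the authors' counting treated reads that fit several genes is not given in the sources used here, so the KRT14 count is the least certain of the 5. KRT16 itself held 5829, 219, 230 and 100 counts, at most 2.15% of the KRT14 count of the same replicate, and the 5 KRT16 pseudogene rows together held 0.119% to 1.07% of it. KRT17, with 14 of the shared windows, was far more abundant, at 30.9%, 48.7%, 29.9% and 18.8% of the KRT14 count.

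A promoter sequence from RefSeq was found for KRT5 and KRT4, the type II members. The 120 bases before the annotated start are shown because both hold letters like a TATA box, given in capitals, at chr12:52520395-52520514 for KRT5 and chr12:52814117-52814236 for KRT4 (GRCh38.p14, minus strand).
KRT5 promoter: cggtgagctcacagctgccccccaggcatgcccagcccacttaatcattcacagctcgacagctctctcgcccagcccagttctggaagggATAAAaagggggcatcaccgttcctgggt
KRT4 promoter: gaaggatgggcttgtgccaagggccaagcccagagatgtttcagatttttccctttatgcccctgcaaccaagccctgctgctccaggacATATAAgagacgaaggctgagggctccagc

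The letters ATAAA began 29 bases before the KRT5 start, and ATATAA began 30 bases before the KRT4 start. Of 14511 promoters of the same length, 6.86% held either of these on the gene's own strand beginning 20 to 40 bases before the start. The AP-2 letters GCCNNNGGC (a palindrome, so the same on both strands) occurred 1 time in the 250 bases before KRT4 and 0 times before KRT5, against 24.7% of all promoters with at least 1. AP-1 letters (TGANTCA, both strands) and a nuclear receptor half-site (AGGTCA, both strands) had 0 matches in either gene, against 5.02% and 9.92% of all promoters. A match of letters is a description and not a site of binding.

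KRT14 had the highest mean level of the 5 keratins and, with levels scaled over protein-coding genes, the smallest spread. Its level was 6824, 7642, 6547 and 6375 TPM in replicates 1 to 4, with a mean of 6847 ± 561 (SD, n = 4), from 271274, 83121, 96270 and 77710 counts. Every replicate lay close to the others, and KRT14 ranked between 6 and 9 among the protein-coding genes of each library. The highest replicate exceeded the lowest by 1.20-fold on the scale of TPM + 1, and 98.1% of 12164 detected protein-coding genes had at least that spread. KRT14 was the 1 member of the 5 with a spread of at most 1.5-fold, which 15.1% of all detected genes had. Scaled over all rows instead, an alternative added after seeing the data, KRT14 had 2112 TPM in replicate 1 against 5725 to 6773 TPM in the others, a 3.21-fold spread, while that of KRT5 was 1.67-fold. Of the genes detected on that scale, 51.2% reached or passed the spread of KRT14 and 92.2% that of KRT5. That scaling lowered replicate 1 for genes in general, with a median log2 difference of -1.27 over the detected genes against 0.03 on the protein-coding scale.

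KRT5, the type II partner of KRT14, had 5396, 2660, 1920 and 3000 TPM (3244 ± 1504, SD, n = 4), from 301986, 40732, 39737 and 51480 counts. Replicate 1 was the highest and replicate 3 the lowest, 2.81-fold apart, near the median spread of 2.23-fold over all detected genes. Without replicate 1 the spread of KRT5 was 1.56-fold. KRT5 held rank 11 in replicate 1 and ranks 36, 87 and 29 in the others.

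KRT15 varied over a wider range than KRT5 or KRT14. It had 13064 TPM in replicate 1, where by deposited gene length it was the most abundant protein-coding gene of the library. With the union of annotated exons as length it was at 0.695 of KRT14 there, and without length correction at 2.15 times KRT14. In replicates 2 to 4 KRT15 had 458, 239 and 1308 TPM (ranks 278, 609 and 90). Its mean was 3767 ± 6215 (SD, n = 4), and 668 without replicate 1. The counts behind these levels were 584088, 5606, 3945 and 17933. Replicate 1 lay above all others and replicate 4 came next, and the 54.5-fold spread was reached or passed by 0.954% of detected genes. Replicate 4 also stood above the mean of replicates 2 and 3 by 1.98 on the log2 scale, a difference that 3 of 12164 genes reached or passed, KRT15 included. Replicates 1 and 4 are those of low IFI6, and the part of that split in the KRT15 level was not tested. In RNA from whole cultures, more cells with a transcript and more transcript per cell cannot be told apart. The KRT15 gene also spans the row of the miRNA gene MIR6510, which held 297, 0, 0 and 2 counts.

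KRT13, the neighbour of KRT15 on chromosome 17, had the same order of replicates. Its level was 9870 TPM in replicate 1 (rank 2 of the library) and 1038, 616 and 1900 TPM in replicates 2 to 4, with a mean of 3356 ± 4375 (SD, n = 4) and of 1185 without replicate 1. The counts were 411304, 11840, 9498 and 24280. Its spread was 16.0-fold, reached or passed by 2.48% of detected genes. An antisense gene (ENSG00000229732.1) lies over the end of KRT13 and held 1527, 707, 393 and 968 counts, 0.371% to 5.97% of the KRT13 count. The strand setting of the counting is not given in the sources used here, so reads from these overlapping genes may not have been told apart.

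KRT4, the type II partner of KRT13, was the lowest of the 5 keratins and had the widest spread. It had 2359 TPM in replicate 1 and 123, 29.2 and 61.0 TPM in replicates 2 to 4, with a mean of 643 ± 1145 (SD, n = 4) and of 71.1 without replicate 1, from 123081, 1759, 564 and 975 counts. Replicate 1 lay far above the rest, and replicate 2 rather than replicate 4 came next. The spread was 78.1-fold, reached or passed by 0.806% of detected genes. The rank of KRT4 was 61 in replicate 1 and 1399, 4716 and 2923 in the others.

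**Figure D1:**
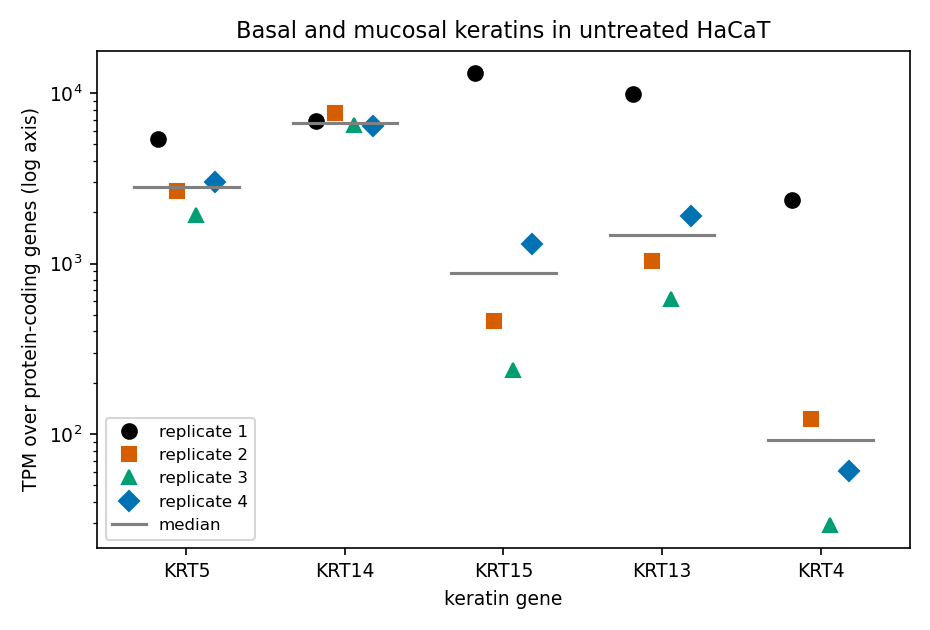
Level of each keratin gene in TPM over protein-coding genes (log axis) in the 4 HaCaT replicates, with 1 point per replicate and a grey line at the median. KRT14 stays between 6375 and 7642 TPM, while KRT15, KRT13 and KRT4 are highest in replicate 1 and spread over 16.0-fold to 78.1-fold.

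A spread of at least 10-fold between replicates was found in 3 of the 5 keratins (KRT15, KRT13 and KRT4), against 4.27% of the 12164 detected protein-coding genes. The count rests on replicate 1. Without it the spreads were 5.47-fold for KRT15, 3.08-fold for KRT13 and 4.11-fold for KRT4, none of them over 10, although 0.596%, 4.79% and 1.57% of 12074 detected genes still reached or passed them. Without replicate 3, the lowest for all 3 genes, KRT15 spread over 28.4-fold, KRT13 over 9.50-fold and KRT4 over 38.1-fold. Scaled over all rows, the spreads were 19.3-fold for KRT15, 5.66-fold for KRT13 and 27.5-fold for KRT4, so KRT13 was then under 10-fold. They were reached or passed by 3.39%, 22.4% and 2.06% of the genes detected on that scale. Replicate 1 was the highest for 4 of the 5 keratins, against 40.2% of detected genes. Over all rows KRT5 was no longer among them, and the share of genes on that scale was not computed. The order of replicates 1, 4, 2 and 3 from highest to lowest was shared by KRT5, KRT15 and KRT13, 3 of 5, against 16.8% of detected genes.

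Relative to the mean of the other replicates on the log2 scale, replicate 1 was higher by 5.26 for KRT4, 4.64 for KRT15, 3.21 for KRT13 and 1.12 for KRT5, and KRT14 differed by -0.00. The median over all detected genes was 0.03. By GC content, KRT5, KRT15, KRT13 and KRT4 (55.6% to 58.2% GC in the longest transcript) fell in bin 4 of 5, where the median of this difference was -0.49 and its 95th percentile 1.24, and KRT14 (60.5% GC) fell in bin 5. The 4 keratins of bin 4 stood above that median, KRT5 within the 95th percentile and the other 3 beyond it. The part of depth and of the lower protein-coding share of replicate 1 in these differences was not tested. The summed fibroblast markers were at 5.60 TPM in replicate 1, within the range of the other replicates, but single markers moved apart. LUM (3.35 TPM against 0, 1.21 and 0.381) and DCN (1.63 TPM against 0, 0.618 and 0) were highest in replicate 1. COL1A1, at 1.88 to 8.54 TPM in the other replicates, and COL3A1 were lowest there. The part of other cell types in the keratin differences was not tested.

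**Figure D2:**
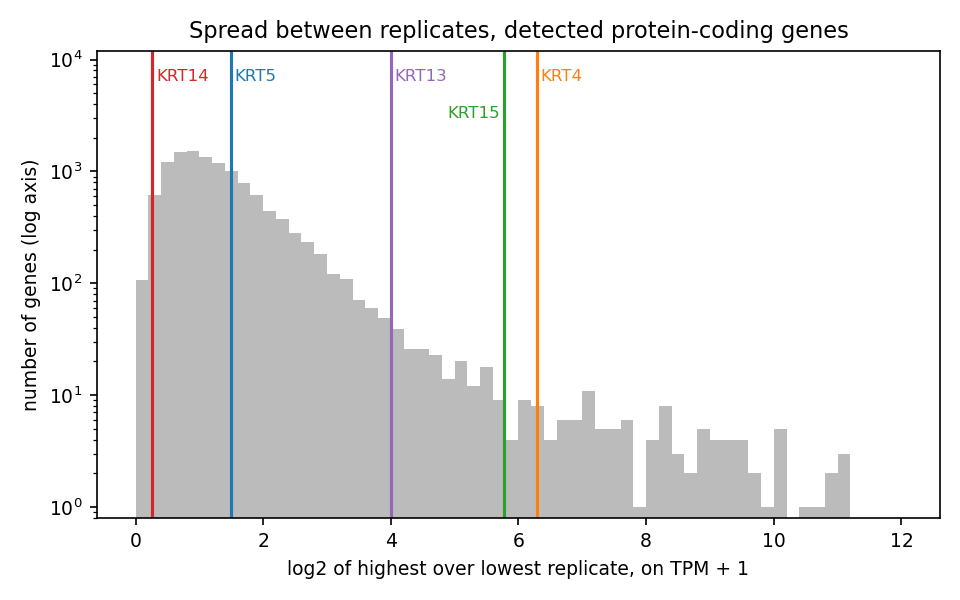
Histogram of the log2 ratio of highest to lowest replicate, on TPM + 1, for the 12164 detected protein-coding genes (log count axis), with vertical lines at the 5 keratins. KRT14 (1.20-fold) lies at the left edge, KRT5 (2.81-fold) within the bulk, and KRT13 (16.0-fold), KRT15 (54.5-fold) and KRT4 (78.1-fold) in the right tail.

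The order of the 5 keratins within a library was compared next. In replicates 2, 3 and 4 it was KRT14, KRT5, KRT13, KRT15 and KRT4 from highest to lowest, and in replicate 1 it was KRT15, KRT13, KRT14, KRT5 and KRT4. Of the 10 pairs, 5 had the same sign in 4 of 4 replicates on the log2(TPM + 1) scale. KRT14 exceeded KRT5 by 1.18 ± 0.63 (SD, n = 4) and KRT4 by 5.48 ± 2.74. KRT4 was also below KRT5 by 4.30 ± 2.18, below KRT13 by 3.61 ± 1.29 and below KRT15 by 2.94 ± 1.08. For these 5 pairs an exact two-sided permutation of signs within replicates gave p = 0.125, the smallest that 4 replicates allow, and 0.25 after Benjamini-Hochberg adjustment over the 10 pairs, so no pair could pass a threshold of 0.05 in this test. With the deposited gene lengths, in the other 5 pairs replicate 1 had the opposite sign to the remaining replicates, with adjusted exact p of 0.31 to 0.38. KRT14 and KRT15, KRT15 and KRT13, and KRT13 and KRT5, adjacent by mean TPM, thus did not keep 1 order in all replicates. By mean log2 level the order was KRT14 (12.7), KRT5 (11.6), KRT13 (10.9), KRT15 (10.2) and KRT4 (7.26). The signs in replicate 1 depend in part on gene length. With the union of annotated exons as length (7069 bases for KRT15 in place of 1840), KRT14 exceeded KRT15 and KRT13 exceeded KRT15 in 4 of 4 replicates, by 4.0 and 1.84 on average (exact p = 0.125 each). Without length correction, KRT14 exceeded KRT5 in 3 of 4 replicates (exact p = 0.25).

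Ratios within a library do not depend on its scaling. The ratio of KRT5 to KRT14, the basal partners, was 0.791 in replicate 1 (95% Clopper-Pearson interval 0.787 to 0.795, for counting error only), 0.348 in replicate 2, 0.293 in replicate 3 and 0.471 in replicate 4, a mean of 0.476 ± 0.223 (SD, n = 4). Per length KRT5 stayed below KRT14 in all 4, while in counts without length correction it was above KRT14 in replicate 1, at a ratio of 1.11. The ratio of KRT4 to KRT13, the mucosal partners, was 0.239, 0.119, 0.0474 and 0.0321, a mean of 0.109 ± 0.0944 (SD, n = 4), so KRT4 was the lesser partner in every replicate. Without replicate 1 the mean was 0.0661. The intervals of replicates 3 (0.0435 to 0.0516) and 4 (0.0301 to 0.0342) did not overlap. Replicate 4 thus had the lowest KRT4 for its KRT13, although it held the next highest KRT13 after replicate 1.

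KRT15 and KRT13 moved against KRT14 by a wide margin. The ratio of KRT15 to KRT14 was 1.91, 0.0600, 0.0364 and 0.205, a 52.5-fold range, and that of KRT13 to KRT14 was 1.45, 0.136, 0.0941 and 0.298, a 15.4-fold range. Between the neighbours, KRT13 over KRT15 was 0.756 in replicate 1 (0.752 to 0.759) and 2.27, 2.58 and 1.45 in replicates 2 to 4. With deposited lengths KRT15 thus exceeded KRT13 in replicate 1 only, of the 4 libraries. With the union of annotated exons as length KRT13 over KRT15 was 1.71 in replicate 1 and KRT15 over KRT14 was 0.695. Both directions in replicate 1 thus turned, but for KRT15 that union is longer than the whole gene at its deposited positions. Without length correction KRT13 over KRT15 was 0.704 and KRT15 over KRT14 was 2.15 in replicate 1, the directions seen with deposited lengths.

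**Figure D3:**
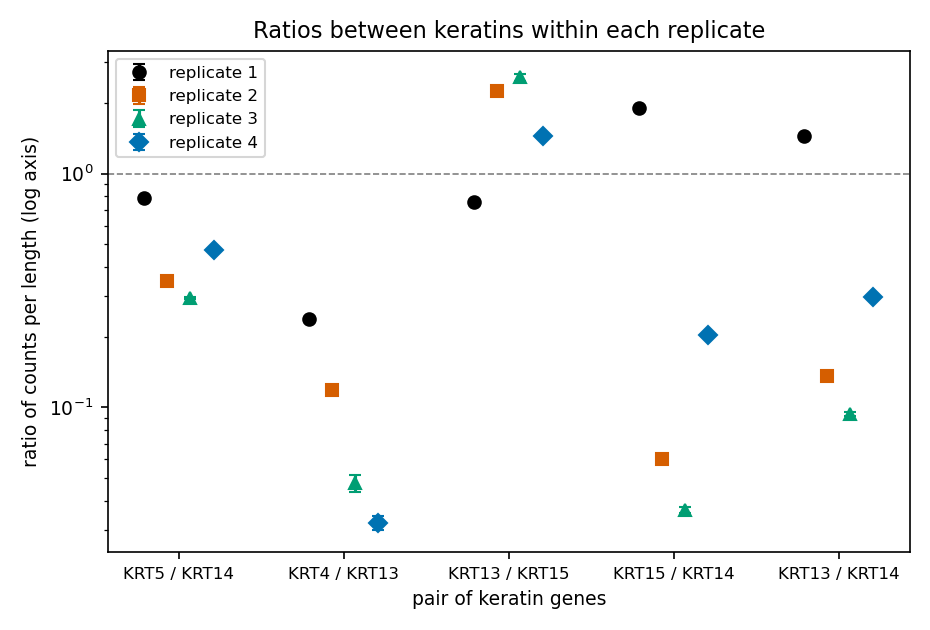
Ratios of counts per gene length between pairs of keratin genes in each replicate (log axis), with 95% Clopper-Pearson intervals that cover counting error and are often smaller than the points, and a dashed line at equal levels. Replicate 1 lies apart in KRT13 over KRT15 (0.756, below the line), KRT15 over KRT14 (1.91) and KRT13 over KRT14 (1.45).

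Among all keratins, the 5 genes together took 72.4%, 42.9%, 42.4% and 49.6% of the summed keratin TPM in replicates 1 to 4 (51.8% ± 14.1, SD, n = 4). KRT14 alone took 13.2% in replicate 1 and 25.0% to 29.7% in the others, while KRT5 kept 8.70% to 11.8%. KRT15, KRT13 and KRT4 together took 48.8% in replicate 1 and 5.82%, 4.01% and 12.8% in replicates 2 to 4, a mean of 17.9% with replicate 1 and 7.55% without it. The simple epithelial keratins KRT7, KRT8, KRT18, KRT19 and KRT20 took 18.3% in replicate 1 and 35.2% to 42.4% in the rest. Their sum was nearly level on the protein-coding scale, at 9361 to 10308 TPM. Within it KRT19 was highest in replicate 1 (6697 TPM against 2260 to 3548 TPM), while KRT7, KRT8 and KRT18 were lowest there. Keratins as a whole took 5.18% of protein-coding TPM in replicate 1 and 2.21% to 2.78% in the others, and the 5 genes took 3.75% against 0.935% to 1.26%.

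**Figure D4:**
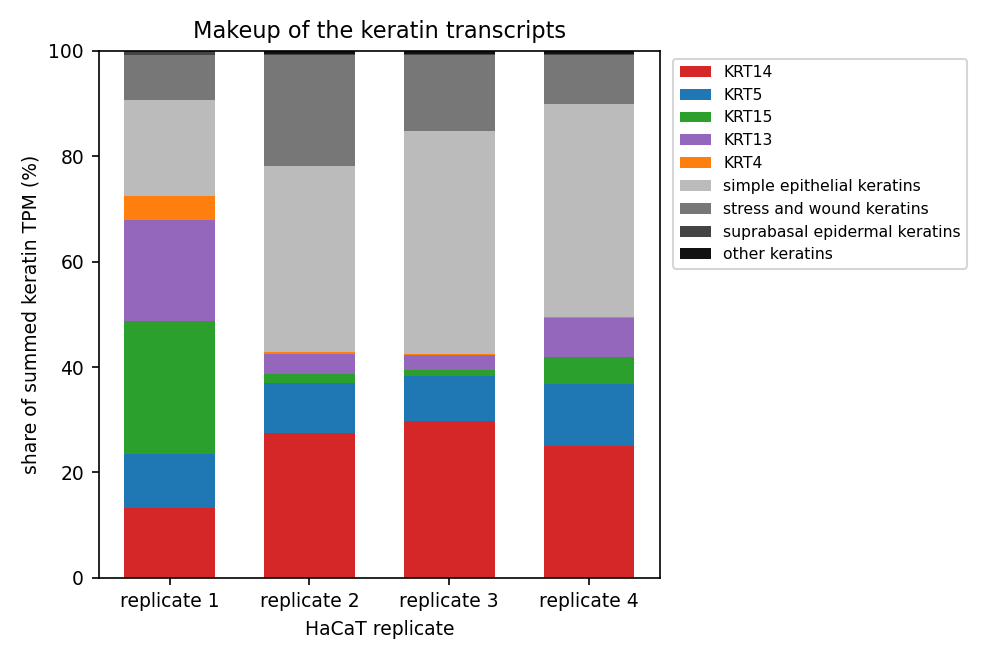
Share of the summed keratin TPM (%) taken by each of the 5 keratin genes (colours) and by the other keratin classes (grey) in the 4 replicates. KRT15, KRT13 and KRT4 fill 48.8% of the bar of replicate 1 and 4.01% to 12.8% of the others.

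The 3 type I members summed to 3.84, 3.28, 3.80 and 3.13 times the 2 type II members, a mean of 3.51 ± 0.36 (SD, n = 4). Over 28 type I and 26 type II keratins, type I exceeded type II by 3.19-fold in replicate 1 and by 1.70, 1.5 and 1.57-fold in replicates 2 to 4. Without the 5 members this ratio was 2.11, 1.11, 0.847 and 0.879, and replicate 1 was the highest with and without them.

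The neighbours of the members in the clusters showed several patterns. KRT19, a type I keratin of simple epithelia that lies between KRT15 and KRT14, had 6697, 3008, 2260 and 3548 TPM, in the order of replicates seen for KRT15 and KRT13 but over 2.96-fold only. KRT16 had 140, 19.2, 14.9 and 7.81 TPM, highest in replicate 1, and its type II partner KRT6A had 2076, 1966, 1115 and 1072 TPM. KRT17 had 2191, 3871, 2037 and 1246 TPM, highest in replicate 2. On chromosome 12, KRT1, the type II keratin of cells leaving the basal layer of skin, had 124 TPM in replicate 1 and 0.430, 0.545 and 0.219 TPM in the others, from 7, 12 and 4 counts in replicates 2 to 4. KRT1 was thus called detected only through replicate 1. Its partner KRT10 had 229, 31.3, 52.4 and 47.4 TPM. KRT8 and KRT18, the simple epithelial partners, ran the other way, with 1095 TPM of KRT8 in replicate 1 against 2328 to 3266 TPM in the others, and 444 TPM of KRT18 against 1155 to 1456 TPM.

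**Figure D5:**
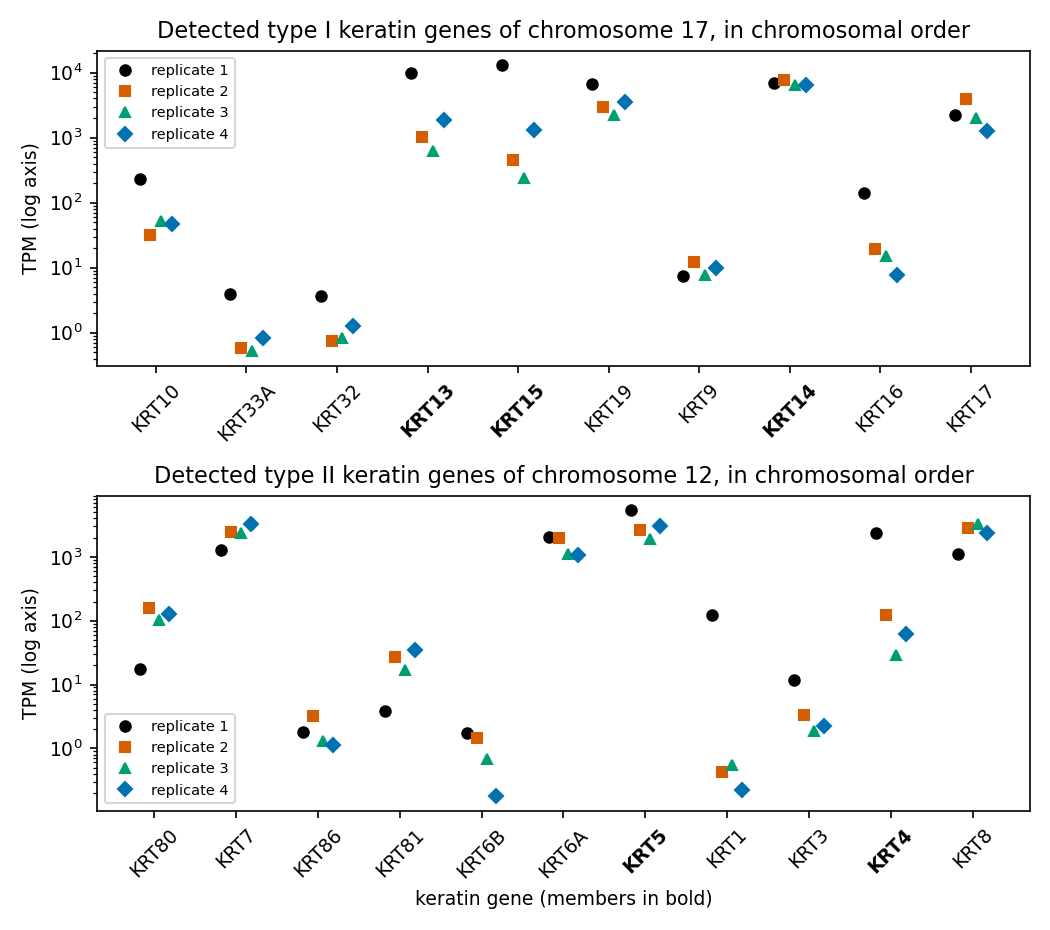
Level in TPM (log axis) of the detected type I keratin genes of chromosome 17 and type II keratin genes of chromosome 12, in chromosomal order, with 1 point per replicate and the members in bold. KRT13 and KRT15 lie next to each other and are both highest in replicate 1, as is KRT4, while KRT14 is level and KRT8 is lowest in replicate 1.

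Regulators and adhesion genes of the basal layer are given from lists, beside the 40.2% of all detected genes that were highest in replicate 1 and the 4.27% that spread over at least 10-fold. Of 17 regulators of the basal and epithelial lineage, 16 were detected, 8 were highest in replicate 1 and 0 spread over 10-fold or more. TP63, the master regulator of stratified epithelium that acts on KRT5 and KRT14, had 90.7, 86.1, 34.5 and 73.4 TPM, and TFAP2A (AP-2 alpha) had 9.21, 77.7, 42.1 and 59.9 TPM, lowest in replicate 1. SOX2, a factor of oesophageal and other stem cells, had 37.3 TPM in replicate 4 and 11.2 to 12.8 TPM elsewhere. All 11 genes of basal layer adhesion were detected, 4 highest in replicate 1, with a median log2 difference of replicate 1 of -0.13. The integrin chains of the hemidesmosome moved apart in replicate 1. ITGA6 had 1022, 294, 113 and 293 TPM and ITGB4 had 105, 453, 186 and 471 TPM. Among replicates 2 to 4, both were lowest in replicate 3. Of 14 proteins that bind or anchor keratins, all were detected and 4 were highest in replicate 1. DST, a linker of keratin to hemidesmosomes, was the 1 gene of either list with a spread of 10-fold or more (108, 22.4, 4.12 and 25.1 TPM), while PLEC, a linker of the same family, had 45.8, 285, 120 and 279 TPM.

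Of 13 other genes of wet squamous epithelium, 5 were detected. MAL, a membrane protein of apical transport, had 30.9, 0.529, 0.391 and 1.65 TPM, so it was called detected only through replicate 1, where it was highest. MUC4, a membrane mucin, had 0.600, 6.15, 1.22 and 11.9 TPM, highest in replicate 4. ECM1 had 43.4 to 85.6 TPM, EMP1 had 242 to 419 TPM and PAX9, a factor of oral and oesophageal epithelium, had 13.0 to 26.8 TPM, and each was highest in replicate 2. CRNN, SPRR3, KRT76 and KRT78 stayed below 1.4 TPM in every replicate, and KRT24 had 0 counts.

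Of 12 genes of epidermal differentiation, 6 were detected, of which DSG1 and CALML5 passed the limit only through replicate 1 and so had to be highest there. Of the 4 that passed in the mean of replicates 2 to 4, a filter added after seeing the data, 3 were highest in replicate 1 (IVL, TGM1 and SPINK5) and 2 spread over at least 10-fold (IVL and SPINK5), beside 38.9% and 3.98% of the 12074 genes that passed the same filter. Their median log2 difference of replicate 1 was 2.57, beside -0.00 over those genes. IVL, which encodes the cornified envelope protein involucrin, had 202, 5.49, 4.06 and 14.9 TPM, and DSG1, a desmosomal cadherin of upper layers, had 11.9 TPM in replicate 1 and 0 counts in the others. FLG, which encodes filaggrin, was highest in replicate 2 at 14.3 TPM and at 6.36 TPM in replicate 1. LOR, SBSN and LCE3D, of the outermost layers, stayed below 0.4 TPM in all 4.

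Of 20 genes of retinoid signalling, 13 passed in the mean of replicates 2 to 4, of which 6 were highest in replicate 1 and 2 spread over at least 10-fold (ALDH1A1 and CRABP2), with a median log2 difference of replicate 1 of 0.26. The share highest in replicate 1, 46.2%, is near that of all genes passing this filter. ALDH1A1, an enzyme that makes retinoic acid, had 156, 1.78, 0.845 and 1.19 TPM. CRABP2, which carries retinoic acid to the nucleus and is itself a known retinoid-responsive gene, had 163, 26.1, 14.6 and 18.0 TPM. CYP26A1 and CYP26B1 of the same list moved apart in replicate 1. CYP26A1 had 15.3, 6.73, 3.64 and 9.91 TPM, and CYP26B1 had 2.12, 23.4, 8.21 and 20.3 TPM. DHRS3, a retinaldehyde reductase, had 257, 136, 86.9 and 100 TPM. ALDH1A3 was the most abundant synthesis enzyme and ran the other way, with 364 TPM in replicate 1 and 604 to 895 TPM in the rest. The receptor genes RARG (65.9 to 114 TPM) and RXRA (72.5 to 160 TPM) were highest in replicate 4, and RARA was lowest in replicate 1 at 6.74 TPM against 26.1 to 51.4 TPM.

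The genes whose profile over the 4 replicates was most like each member were found from the root mean square (RMS) difference of log2(TPM + 1), centred on the mean of each gene. IVL was the nearest to KRT15, at an RMS difference of 0.29, followed by LUZP2 and SEMA6D, and these were the only 3 genes within 0.5. SCEL, which encodes the cornified envelope precursor sciellin, was the nearest to KRT4 at 0.24, with 123, 4.80, 0.862 and 3.54 TPM, followed by C10orf99 and CLDN8, and 4 genes lay within 0.5. For KRT13 the nearest were IKZF2 at 0.14, TP53INP1 and PPFIBP2, with 118 genes within 0.5. Profiles like those of the basal pair were common, with 4876 genes within 0.5 of KRT5 (FBXO34 nearest) and 6914 within 0.5 of KRT14 (MUTYH nearest). KRT13 was the gene of rank 21 in likeness to KRT15, at 0.69, and KRT4 was of rank 64 at 0.93. These likenesses rest on 4 libraries of which replicate 1 stands apart. Only detected genes were searched. SEMA6D and CLDN8 passed the detection limit only through replicate 1, so they had to be highest there.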

How the data were processed

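RNA was extracted with Trizol and treated with DNase I, and Illumina libraries were sequenced from 4 replicates of untreated HaCaT. The authors deposited raw counts per gene with gene lengths for each replicate, RPKM for replicates 1 and 2, and TPM for replicates 3 and 4. The submitters' processing notes name hg19, HISAT2, TopHat2, Bowtie2 and HISAT without roles. The counting program, annotation and strand setting are not given in the sources used here, and the serum content in the labels differs from that in the study's methods.

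Since the deposited unit differs, TPM over protein-coding genes was computed from deposited counts and lengths, and symbols on several rows were left out of counts over genes. Members and lists were chosen with earlier results of these data known. Named genes were the members, the genes of the lists and the 3 nearest profiles of each member. Pairs were compared by an exact two-sided permutation of signs on the log2(TPM + 1) scale, which understates the change of low genes. Ratios carry Clopper-Pearson intervals of the counts. These cover counting error alone, as the libraries had no stated molecular identifiers. A count of 3 was taken as the limit of detection, at most 0.276 TPM for any member. Depth was 17056035 to 73082279 counts. Scripts were tested on simulated data. Alternatives were other scalings (all rows, CPM, upper quartile, median of ratios, deposited values), gene lengths, pseudocounts, detection limits and leaving out each replicate. Spreads over all rows and a detection limit over replicates 2 to 4 were added after seeing the data. Software was SciPy 1.17.1, pandas 2.3.3, NumPy 2.4.6, Biopython 1.88 and matplotlib 3.10.9 on Python 3.11.15. Proteins and the promoters of KRT14, KRT15 and KRT13 were not analysed here.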

Additional observations from a re-analysis of the deposited data

Results flagged for a closer look

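With 4 values a set stood out where its highest or lowest value lay apart from the nearest other by more of the whole range than Dixon's 95% critical value. For normally distributed values chance alone gives this in about 1 of 20 sets. Sets of TPM, counts or shares may be skewed, and that rate was not checked for them. The sets were the members, a part of the other genes named here, and the library totals, shares, type ratios and pair differences. Of 78 sets of 4 values tested, 27 stood out, 25 of them because of replicate 1. Without the 8 tested genes chosen because their profile is like that of a member, 21 of 70 sets stood out, 19 of them because of replicate 1. DSG1, TP53INP1 and PPFIBP2 were not tested though their values meet the rule, so these counts depend on which genes were entered. The sets share libraries, are not independent and include genes chosen with their values in view and genes detected only through replicate 1.

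Among the members, KRT15 (13064 TPM), KRT13 (9870 TPM) and KRT4 (2359 TPM) stood out in replicate 1, and KRT5 and KRT14 did not. The share of keratin TPM taken by KRT15 (25.2%) and by KRT4 (4.55%), the share of protein-coding TPM taken by the 5 members (3.75%) and the ratio of type I to type II keratins (3.19) stood out in the same library, as did its total of 73082279 counts and its protein-coding share of 76.1%. The part of these library differences in the keratin levels was not tested.

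Other keratins that stood out in replicate 1 were KRT16 (140 TPM), KRT1 (124 TPM) and KRT10 (229 TPM). Genes of differentiation and of wet squamous epithelium were IVL (202 TPM), SPINK5 (42.9 TPM), CALML5 (30.5 TPM) and MAL (30.9 TPM). Retinoid genes were CRABP2 (163 TPM), ALDH1A1 (156 TPM) and RDH10 (42.5 TPM). KRT1, CALML5 and MAL passed the detection limit only through replicate 1, so they had to be highest there. Genes named for a profile like that of a member were chosen by that profile, so their standing apart is no separate result. Of these genes, those that were tested and stood out were SCEL (123 TPM), LUZP2 (38.7 TPM), SEMA6D (55.3 TPM), C10orf99 (180 TPM), CLDN8 (61.6 TPM) and IKZF2 (23.0 TPM). SOX2 stood out in replicate 4 (37.3 TPM) and ECM1 in replicate 2 (85.6 TPM).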

How the results depend on the processing

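Each value was recomputed under the alternatives. Of 163 alternative values of the pair differences, ratios, shares and spreads, 151 were unaltered in the sense that pair differences kept their sign, ratios and shares stayed within 1 SD, and spreads stayed within 1.5 times. The other 12 were spreads, 7 moved by leaving out a replicate and 5 by scaling over all rows. No mean pair difference changed sign, but signs within replicate 1 did, for KRT14 and KRT15 and for KRT15 and KRT13 with the union of exons as length and for KRT14 and KRT5 without length correction. For KRT15 the union of exons is longer than the whole gene at its deposited positions. Both KRT15 signs were kept without length correction. Scaled over all rows, the spreads were 1.67-fold for KRT5, 3.21 for KRT14, 19.3 for KRT15, 5.66 for KRT13 and 27.5 for KRT4. They were reached or passed by 92.2%, 51.2%, 3.39%, 22.4% and 2.06% of the genes detected on that scale. With upper quartile or median-of-ratios scaling all 5 spreads stayed within 1.5 times. Shares of keratin TPM and ratios of type I to type II were not recomputed with the union of exons as length. The SDs are themselves set by replicate 1: without it the mean ratio of KRT4 to KRT13 went from 0.109 to 0.0661, the share of KRT15, KRT13 and KRT4 from 17.9% to 7.55%, and the mean levels of KRT15, KRT13 and KRT4 to 668, 1185 and 71.1 TPM. When each replicate was left out in turn, the spread between replicates ranged from 1.56 to 2.81-fold for KRT5, from 5.47 to 54.5-fold for KRT15, from 3.08 to 16.0-fold for KRT13 and from 4.11 to 78.1-fold for KRT4. The lowest values came without replicate 1, and without replicate 3 the spreads of KRT15, KRT13 and KRT4 were 28.4, 9.50 and 38.1-fold. Of 75 alternative values of mean levels and percentiles, 6 moved by more than 1 SD, among them the mean of KRT14, at 5135 TPM over all rows. The mean of its deposited values, 4225, also moved, but it mixes RPKM (replicates 1 and 2) with TPM (replicates 3 and 4). There was 1 group, so samples could not be paired across groups. With 4 replicates the permutation of signs cannot pass 0.05, and counting error is small beside the spread between replicates for all members.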
